A study of Homo sapiens with 30 samples.

Results

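The DNA replication and S-phase genes described here were 41 genes whose products license and fire replication origins, copy DNA, supply nucleotides, assemble chromatin behind the fork, drive entry into S phase or guard and repair replicating DNA. They were found by gene name among the 30484 names printed on the array, and each gene was read from 1 probe, the one with the highest mean signal over all 30 arrays. All 41 genes had a probe. Measurements came from 5 established lines of human breast cancer cells, namely ZR-75-30, SK-BR-3, MDA-MB-361, HCC1954 and HCC1419. Each line was treated with recombinant human BMP4 (bone morphogenetic protein 4), a signalling protein of the TGF-beta family, or with vehicle, for 30 min or for 1, 3, 6, 12 or 24 h, and the labels name no other agent or genetic change. RNA of the BMP4-treated cells carried Cy5 and RNA of the vehicle-treated cells of the same line and time carried Cy3 on a two-colour whole-genome oligonucleotide array, with no dye swap. Triplicate cultures were pooled before RNA extraction, so each line had 1 array a time point and no biological replicate there. Values are log2 ratios of BMP4 over vehicle (−1 is a level 2-fold lower with BMP4), and the 5 lines serve as replicates of a time point.

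In dividing cells, the origin recognition complex, CDC6 and CDT1 load the MCM2 to MCM7 helicase onto origins before S phase, and kinases and the GINS complex then switch the helicase on. The sliding clamp PCNA, placed by the RFC loader, holds the polymerases on the template, while RPA coats single-stranded DNA. E2F transcription factors and cyclin E control entry into S phase, and many replication genes are known E2F targets, so their mRNA levels rise and fall with the number of cycling cells. In a bulk RNA sample, fewer cells in S phase and less of an mRNA in each cell cannot be told apart.

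E2F-type motifs in the members' promoters give the sequence context of these genes. Promoters (250 bases before to 50 after a start site) were taken from RefSeq (GRCh38.p14) for the 36 members that the table held, which had 50 start sites. The letters TTTCCCGC, TTTGGCGC, TTTCGCGC and TTTGCCGC were searched on both strands, and overlapping matches at different first bases were counted separately. At least 1 match was present in 23 of the 50 promoters (46%), compared with 3.31% of all 35116 promoters of the same length. At least 2 matches were present in 6 of the 50 (12%), compared with 0.145% of all. By gene, 22 of 36 members (61.1%) had a match in at least 1 promoter, and among all 27305 genes 3.99% did. The CCAAT box (CCAAT, both strands) was in 28 of the 50 promoters (56%) and in 34.6% of all. A match is a description of the letters only, and its relation to the ratios was not tested. Of the lowest members in MDA-MB-361 at 24 h, DTL, CDT1, TYMS and UHRF1 had a match, and CHAF1B, RFC4, TK1 and RRM1 had none. The 200 bases before the start site are shown for 6 members with a match in them, with the matches in capitals, because these include the lowest members in MDA-MB-361 at 12 and 24 h (CDT1 and DTL), the sliding clamp (PCNA), helicase genes (MCM6 and MCM3) and E2F1 itself. They are written 5′ to 3′ along the gene.
CDT1 (chr16:88803589-88803788, plus strand): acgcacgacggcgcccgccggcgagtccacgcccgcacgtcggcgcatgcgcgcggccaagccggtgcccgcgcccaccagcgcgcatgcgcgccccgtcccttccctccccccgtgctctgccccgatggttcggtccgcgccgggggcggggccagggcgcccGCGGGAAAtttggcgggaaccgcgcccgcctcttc
DTL (chr1:212035548-212035747, plus strand): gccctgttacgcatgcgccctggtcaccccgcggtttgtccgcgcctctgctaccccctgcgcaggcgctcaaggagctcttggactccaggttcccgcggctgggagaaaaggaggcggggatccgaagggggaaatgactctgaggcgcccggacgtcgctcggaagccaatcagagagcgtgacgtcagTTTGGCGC
PCNA (chr20:5126623-5126822, minus strand): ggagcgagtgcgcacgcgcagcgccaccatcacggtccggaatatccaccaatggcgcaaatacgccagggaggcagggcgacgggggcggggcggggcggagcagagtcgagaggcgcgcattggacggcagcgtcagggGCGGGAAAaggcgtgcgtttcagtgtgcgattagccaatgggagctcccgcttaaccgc
MCM6 (chr2:135876444-135876643, minus strand): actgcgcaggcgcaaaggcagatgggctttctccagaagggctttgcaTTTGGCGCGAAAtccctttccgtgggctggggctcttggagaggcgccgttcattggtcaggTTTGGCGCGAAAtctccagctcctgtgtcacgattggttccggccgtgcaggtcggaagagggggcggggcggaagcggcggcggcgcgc
MCM3 (chr6:52284743-52284942, minus strand): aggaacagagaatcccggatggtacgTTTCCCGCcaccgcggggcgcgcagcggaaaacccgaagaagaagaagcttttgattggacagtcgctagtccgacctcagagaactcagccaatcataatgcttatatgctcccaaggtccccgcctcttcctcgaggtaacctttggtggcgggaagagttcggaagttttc
E2F1 (chr20:33686386-33686585, minus strand): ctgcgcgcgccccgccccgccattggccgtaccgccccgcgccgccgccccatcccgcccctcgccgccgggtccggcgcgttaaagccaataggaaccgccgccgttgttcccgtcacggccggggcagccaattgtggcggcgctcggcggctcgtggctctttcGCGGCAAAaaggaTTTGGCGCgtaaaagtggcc
In MCM6 the capitals form a pair of stretches, each of which holds 2 overlapping matches that face each other, and the matches began 152 to 86 bases before the start site. In E2F1 both matches lay within 33 bases of the start, and in DTL the only match ended at the base before it.

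The probes of 40 of the 41 members were well above background in both channels on all 30 arrays. CLSPN was above background on 27 arrays in Cy3 and 26 in Cy5. No member was saturated on any array, and UHRF1, CDC7 and MCM7 each lacked a value on 1 array. Of the epithelial markers, KRT8, KRT18, KRT19, EPCAM and ERBB2 were well above background on all arrays of every line, and CDH1 on all arrays except those of SK-BR-3, where it was on 0 of 6. Of the fibroblast markers, COL1A1 was on all arrays of every line but SK-BR-3 (4 of 6), COL1A2 on 1 array and PDGFRB on 0. Of the leukocyte markers, CD3E and CD68 were on all arrays and PTPRC on 0. Of the endothelial markers, VWF was on all arrays, PECAM1 on all 6 of HCC1954 alone, and CDH5 on 5 of HCC1954 and 5 of SK-BR-3. The part of these markers in the results was not tested. All 6 arrays of HCC1419 were scanned on 1 day and all 6 of MDA-MB-361 on another, so those lines and their scan days cannot be told apart, whereas comparisons between times within them stayed within 1 day. The other 3 lines were each spread over 2 days. The 7 scan days made only 8 combinations of line and day, so days were seldom shared between lines.

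The members were lower with BMP4 in MDA-MB-361 at 12 and 24 h, while their medians in the other 4 lines stayed between −0.20 and 0.048. The median log2 ratio over the 41 genes in MDA-MB-361 was −0.064, −0.078, −0.10, −0.13, −0.44 and −1.20 at 30 min, 1, 3, 6, 12 and 24 h. At 24 h all 41 genes lay below 0 there (49.7% of all probes did), from −2.21 (DTL) to −0.45 (CLSPN). For all 41 the 24 h value was the lowest of that line's 6 arrays, which held for 22.1% of all probes. At 12 h in the same line 37 of 41 lay below 0 (49.2% of all probes did) and 38 of 41 lay below their 30 min value. By then the median gene had covered 32.0% of its distance between 30 min and 24 h.

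In HCC1419 the members' medians over the same times were −0.059, 0.02, 0.048, 0.04, 0.0069 and −0.15. In HCC1954 they were −0.097, 0.0033, −0.027, 0.0025, −0.05 and −0.041. The medians of SK-BR-3 were 0.04, −0.074, −0.041, −0.024, −0.022 and −0.17, and those of ZR-75-30 were −0.013, −0.13, −0.13, −0.11, −0.20 and −0.17. HCC1954 thus ran from −0.097 to 0.0033, and in HCC1419 and SK-BR-3 the 24 h median was the lowest of the 6. At 24 h 31 of the 40 genes with a value lay below 0 in HCC1419, 22 of 41 in HCC1954, 38 of 41 in SK-BR-3 and 28 of 41 in ZR-75-30. Of all probes, 42.4%, 49.8%, 51.0% and 48.9% lay below 0 on these arrays, in the same order. MDA-MB-361 had the lowest 24 h value of the 5 lines for 40 of the 41 genes, compared with 27.7% of all probes, and UNG, lower in ZR-75-30, was the exception.

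**Figure D1:**
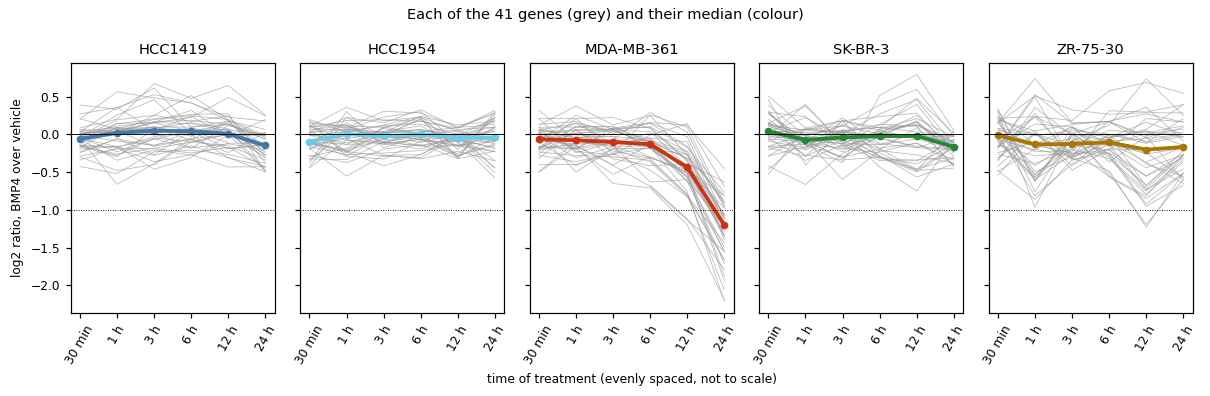
Log2 ratio of BMP4 over vehicle (vertical axis) at the 6 time points (horizontal axis, evenly spaced) in each of the 5 cell lines, 1 array per line and time. Grey lines are the 41 genes, the coloured line is their median, and the dotted line marks a 2-fold lower level. The median reached −1.20 in MDA-MB-361 at 24 h and stayed between −0.20 and 0.048 on the arrays of the other 4 lines.

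Counted at 2-fold, 29 of the 41 genes were at −1 or below in MDA-MB-361 at 24 h, where 0.649% of all probes were (0.992% of the probes well above background on over 15 arrays). At 12 h in the same line 3 genes were there, CDT1, UHRF1 and MSH6, with 0.227% of all probes. The only other 2-fold values among 1227 were MCM2 and RRM2 in ZR-75-30 at 12 h, where 1.17% of all probes were, and no member reached 2-fold higher on any array. Among the 163 values of the other 4 lines at 24 h, 12 were at −0.5 or below and 1 at 0.5 or above.

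All 8 licensing genes were lower with BMP4 in MDA-MB-361 at 24 h, with a median of −1.31. CDT1, which brings the helicase to origins and is destroyed once S phase begins (probe chr16:87402353-87402412, hg18, as are all probe positions), was at −0.50, −0.16, −0.65, −0.71, −1.20 and −2.19 over the 6 times in that line. It was 4.56-fold lower at 24 h by this probe and 2.29-fold lower by a further, dimmer probe (−1.19), and it was the lowest member at 12 h. For CDT1 the same series of times gave −0.15, −0.17, −0.03, 0.034, 0.011 and −0.31 in HCC1419 and −0.19, −0.55, −0.28, −0.32, −0.23 and −0.35 in HCC1954. CDT1 was at 0.047, −0.27, −0.34, −0.30, −0.48 and −0.45 in SK-BR-3 and at −0.54, 0.013, −0.41, −0.11, −0.26 and −0.18 in ZR-75-30. At 24 h it was thus below 0 in all 5 lines, while its change from 30 min over the lines was −0.43 ± 0.20 (SE, 5 lines, limma adjusted p 0.702). CDC6, the ATPase that loads the helicase together with CDT1 (chr17:35711325-35711384), was at −0.26, 0.055, −0.22, −0.32, −0.80 and −1.66 in MDA-MB-361. For CDC6 the same series of times gave −0.14, −0.28, −0.048, −0.094, −0.0006 and −0.48 in HCC1419 and −0.28, −0.37, −0.20, −0.14, −0.32 and −0.22 in HCC1954. CDC6 was at −0.18, −0.29, −0.071, −0.33, −0.34 and −0.31 in SK-BR-3 and at −0.18, 0.23, −0.27, −0.20, −0.55 and −0.26 in ZR-75-30. CDC6 was below 0 at 24 h in all 5 lines and at 30 min as well. Its change between these times was −0.38 ± 0.17 (SE, 5 lines, limma adjusted p 0.676). MCM2, a helicase subunit (chr3:128823495-128823554), was at −0.19, 0.21, −0.26, 0.26, 0.095 and −0.91 in MDA-MB-361, above 0 there at 12 h. For MCM2 the same series of times gave −0.24, −0.059, −0.15, 0.052, 0.063 and −0.47 in HCC1419 and −0.14, −0.057, −0.28, −0.27, −0.027 and −0.44 in HCC1954. MCM2 was at −0.16, −0.13, −0.18, −0.25, −0.48 and 0.042 in SK-BR-3 and at −0.31, 0.012, −0.32, −0.48, −1.23 and −0.51 in ZR-75-30. The lowest MCM2 value was that of ZR-75-30 at 12 h, below that of MDA-MB-361 at 24 h, and the change over the lines was −0.25 ± 0.17 (SE, 5 lines, limma adjusted p 0.804). The other helicase subunits, MCM3 to MCM7, were between −1.56 (MCM7) and −0.89 (MCM3) in MDA-MB-361 at 24 h.

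Of the 3 origin-firing genes, GINS2, a subunit of the complex that activates the helicase (chr16:84269155-84269214), was at −0.024, −0.022, −0.025, −0.31, −0.47 and −1.35 in MDA-MB-361. For GINS2 the same series of times gave −0.053, 0.19, 0.25, 0.17, 0.25 and −0.28 in HCC1419 and −0.19, 0.052, −0.027, −0.053, −0.28 and −0.14 in HCC1954. GINS2 was at 0.019, 0.07, 0.0047, 0.27, 0.46 and −0.14 in SK-BR-3 and at 0.025, −0.15, −0.25, −0.25, −0.56 and −0.31 in ZR-75-30. In ZR-75-30 its lowest value came at 12 h, and in SK-BR-3 its highest did. The change at 24 h from 30 min was −0.40 ± 0.15 (SE, 5 lines, limma adjusted p 0.547). MCM10, which joins helicase and polymerase, was at −1.34 and CDC7, the kinase that fires origins, at −0.98 in MDA-MB-361 at 24 h. MCM10 was 1 of the 4 members, with RFC5, UHRF1 and DTL, that were lower at 24 h than at 30 min in all 5 lines. The share of all probes for which this held was not taken. Some of the differences were small, as for DTL in SK-BR-3 (−0.052 at 30 min and −0.066 at 24 h).

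Clamp and loader genes had a median of −1.17 in MDA-MB-361 at 24 h. PCNA, the sliding clamp (10 spots on each array, chr20:5043957-5044102), was at 0.095, 0.097, 0.055, 0.036, −0.43 and −1.35 there, flat until 6 h. For PCNA the same series of times gave −0.005, 0.0064, 0.019, 0.081, 0.0069 and −0.31 in HCC1419 and 0.093, 0.18, 0.19, 0.17, 0.064 and 0.095 in HCC1954. PCNA was at −0.039, 0.064, 0.11, 0.0059, −0.015 and −0.027 in SK-BR-3 and at 0.21, −0.011, 0.015, −0.091, −0.057 and 0.00087 in ZR-75-30. Outside MDA-MB-361, PCNA lay between −0.31 and 0.21, so its values in that line at 12 and 24 h lay below every other. The change over the lines was −0.39 ± 0.15 (SE, 5 lines, limma adjusted p 0.555). RFC5, a loader subunit (chr12:116954157-116954216), was at −0.021, −0.31, −0.16, −0.31, −0.50 and −1.17 in MDA-MB-361. For RFC5 the same series of times gave 0.20, 0.56, 0.48, 0.41, 0.23 and 0.18 in HCC1419 and 0.14, 0.12, −0.12, 0.034, 0.05 and −0.079 in HCC1954. RFC5 was at −0.063, −0.098, −0.072, 0.033, −0.029 and −0.14 in SK-BR-3 and at −0.069, −0.21, 0.10, −0.37, −0.027 and −0.61 in ZR-75-30. RFC5 was above 0 on every HCC1419 array, and it was lower at 24 h than at 30 min in all 5 lines, with a mean change of −0.40 ± 0.12 (SE, 5 lines, limma adjusted p 0.295). RFC4 reached −1.87, RFC3 −1.12 and RFC2 −0.77 in MDA-MB-361 at 24 h.

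The 8 DNA synthesis genes ranged from −1.29 (POLE2, a subunit of polymerase epsilon) to −0.69 (POLE, its catalytic subunit) in MDA-MB-361 at 24 h, and 5 of them were at 2-fold lower. RPA2, the middle subunit of the single-strand binding protein (chr1:28090892-28090951), had the smallest p of all members for the change at 24 h. It was at 0.039, 0.047, 0.062, 0.14, −0.16 and −0.95 in MDA-MB-361. For RPA2 the same series of times gave −0.29, −0.19, −0.19, −0.25, −0.17 and −0.44 in HCC1419 and −0.12, −0.28, −0.03, −0.063, −0.15 and −0.097 in HCC1954. RPA2 was at −0.17, −0.20, 0.14, −0.19, −0.12 and −0.39 in SK-BR-3 and at 0.073, −0.14, −0.059, −0.13, −0.24 and −0.57 in ZR-75-30. RPA2 was lower at 24 h than at 30 min in every line but HCC1954, and the mean change was −0.40 ± 0.11 (SE, 5 lines, limma adjusted p 0.227). PRIM1, a primase subunit, FEN1, the flap nuclease of the lagging strand, LIG1, the ligase that seals it, and RPA3 were between −1.20 and −1.06 in MDA-MB-361 at 24 h.

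Nucleotide supply genes had a median of −1.69 in MDA-MB-361 at 24 h, and all 4 were at 2-fold lower. TYMS, which makes thymidylate (chr18:663276-663335), was at −0.16, −0.20, −0.53, −0.29, −0.51 and −1.94 in that line. For TYMS the same series of times gave 0.27, 0.35, 0.53, 0.42, 0.18 and −0.044 in HCC1419 and 0.029, 0.22, 0.15, 0.33, 0.085 and 0.31 in HCC1954. TYMS was at 0.38, −0.025, 0.11, 0.39, 0.59 and −0.026 in SK-BR-3 and at 0.24, −0.13, 0.10, −0.12, 0.0049 and 0.067 in ZR-75-30. TYMS was 3.84-fold lower in MDA-MB-361 at 24 h and within 0.31 of 0 in the other 4 lines at that time. Over the lines its change was −0.48 ± 0.20 (SE, 5 lines, limma adjusted p 0.603). RRM2, the S-phase subunit of ribonucleotide reductase (chr2:10186825-10186884), was at 0.21, −0.25, −0.11, −0.071, −0.23 and −1.40 in MDA-MB-361. For RRM2 the same series of times gave −0.085, 0.14, 0.20, 0.26, 0.27 and −0.51 in HCC1419 and −0.38, 0.30, −0.18, −0.026, −0.26 and 0.10 in HCC1954. RRM2 was at 0.20, −0.14, −0.38, 0.51, 0.79 and 0.055 in SK-BR-3 and at 0.23, −0.76, −0.023, −0.52, −1.19 and −0.60 in ZR-75-30. The 12 h values of RRM2 ran from −1.19 in ZR-75-30 to 0.79 in SK-BR-3, the widest spread between lines at that time among the genes shown in full, and the change to 24 h was −0.50 ± 0.25 (SE, 5 lines, limma adjusted p 0.722). RRM1, the large subunit of the same enzyme, was at −1.66 and TK1, thymidine kinase, at −1.71 in MDA-MB-361 at 24 h.

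The 3 chromatin genes had a median of −1.79 in MDA-MB-361 at 24 h, the lowest of the roles. UHRF1, which carries DNA methylation through replication (chr19:4913065-4913124), was at −0.49, −0.092, no value, −0.68, −1.12 and −1.79 in that line, where the 3 h array gave no value. For UHRF1 the same series of times gave 0.39, 0.33, 0.61, 0.093, 0.18 and 0.066 in HCC1419 and 0.18, −0.29, −0.33, −0.09, −0.093 and −0.58 in HCC1954. UHRF1 was at 0.46, −0.40, 0.06, −0.14, −0.061 and −0.20 in SK-BR-3 and at 0.15, 0.74, 0.16, 0.17, −0.016 and 0.03 in ZR-75-30. UHRF1 was lower at 24 h than at 30 min in every line, with differences of −0.12 (ZR-75-30) to −1.30 (MDA-MB-361), and its change of −0.63 ± 0.18 (SE, 5 lines, limma adjusted p 0.279) was the largest among members. CHAF1A, the large subunit of the histone chaperone CAF-1 (chr19:4394140-4394199), was at −0.064, −0.13, −0.10, −0.17, −0.41 and −1.06 in MDA-MB-361. For CHAF1A the same series of times gave 0.21, 0.066, 0.095, −0.027, 0.18 and −0.24 in HCC1419 and −0.11, 0.0088, −0.029, −0.11, −0.0033 and −0.096 in HCC1954. CHAF1A was at 0.057, −0.15, 0.041, 0.094, 0.03 and −0.02 in SK-BR-3 and at 0.049, −0.015, 0.048, 0.0032, −0.096 and −0.003 in ZR-75-30. Its values outside that line stayed within 0.24 of 0. The change over the lines was −0.31 ± 0.11 (SE, 5 lines, limma adjusted p 0.45). CHAF1B, its partner subunit, was 4.18-fold lower in MDA-MB-361 at 24 h (−2.06).

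G1/S regulators in MDA-MB-361 had a median of −1.04 at 24 h. E2F1, a transcription factor of S-phase entry (10 spots, chr20:31727650-31727709), was at −0.12, 0.012, −0.11, 0.018, −0.22 and −0.90 there. For E2F1 the same series of times gave −0.16, −0.26, −0.18, −0.10, −0.00062 and −0.17 in HCC1419 and −0.0098, −0.14, 0.078, 0.0025, 0.037 and −0.066 in HCC1954. E2F1 was at −0.16, 0.006, −0.014, −0.19, −0.47 and −0.17 in SK-BR-3 and at −0.16, 0.53, 0.14, 0.17, 0.36 and −0.088 in ZR-75-30. Outside MDA-MB-361 the 24 h values of E2F1 lay between −0.17 and −0.066, and the change over the lines was −0.16 ± 0.12 (SE, 5 lines, limma adjusted p 0.848). CCNE2, an S-phase cyclin (chr8:95962976-95963035), was at 0.016, −0.50, −0.19, −0.37, −0.82 and −1.43 in MDA-MB-361, where only the 30 min value was above 0. For CCNE2 the same series of times gave −0.077, 0.012, 0.25, 0.51, 0.19 and −0.37 in HCC1419 and 0.063, 0.11, 0.092, 0.17, 0.082 and 0.28 in HCC1954. CCNE2 was at 0.12, 0.057, 0.18, 0.087, 0.48 and 0.016 in SK-BR-3 and at 0.32, −0.62, 0.011, −0.30, −0.75 and −0.34 in ZR-75-30. CCNE2 was lower at 24 h than at 30 min in every line but HCC1954, with a change of −0.46 ± 0.19 (SE, 5 lines, limma adjusted p 0.598). CCNE1 was at −0.81 and E2F2 at −1.17 in MDA-MB-361 at 24 h, while E2F2 was the highest member in HCC1419 and ZR-75-30 at that time (0.26 and 0.54).

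Checkpoint and repair genes held both ends of the range in MDA-MB-361 at 24 h, DTL and CLSPN. EXO1, an exonuclease of mismatch repair (10 spots, chr1:240115340-240115399), was at 0.02, −0.18, −0.074, −0.17, −0.53 and −1.25 there. For EXO1 the same series of times gave −0.079, 0.086, 0.08, 0.15, 0.074 and −0.28 in HCC1419 and 0.026, 0.10, 0.013, 0.067, −0.05 and 0.038 in HCC1954. EXO1 was at 0.15, −0.01, −0.17, 0.0012, −0.022 and −0.11 in SK-BR-3 and at 0.023, −0.42, −0.088, −0.14, −0.44 and −0.27 in ZR-75-30. EXO1 was lower at 24 h than at 30 min in every line but HCC1954, where both values were near 0, and the change was −0.40 ± 0.13 (SE, 5 lines, limma adjusted p 0.407). DTL, which targets CDT1 for destruction, was at −0.76 at 12 h and −2.21 at 24 h in MDA-MB-361, 4.63-fold lower. BRCA1, of homologous recombination, and MSH6, of mismatch repair, were both at −1.55 at 24 h, but MSH6 was lower earlier, at −0.41 at 3 h, −0.69 at 6 h and −1.13 at 12 h. CLSPN, a checkpoint mediator, was at −0.45 and UNG, which removes uracil from DNA, at −0.63 in MDA-MB-361 at 24 h.

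**Figure D2:**
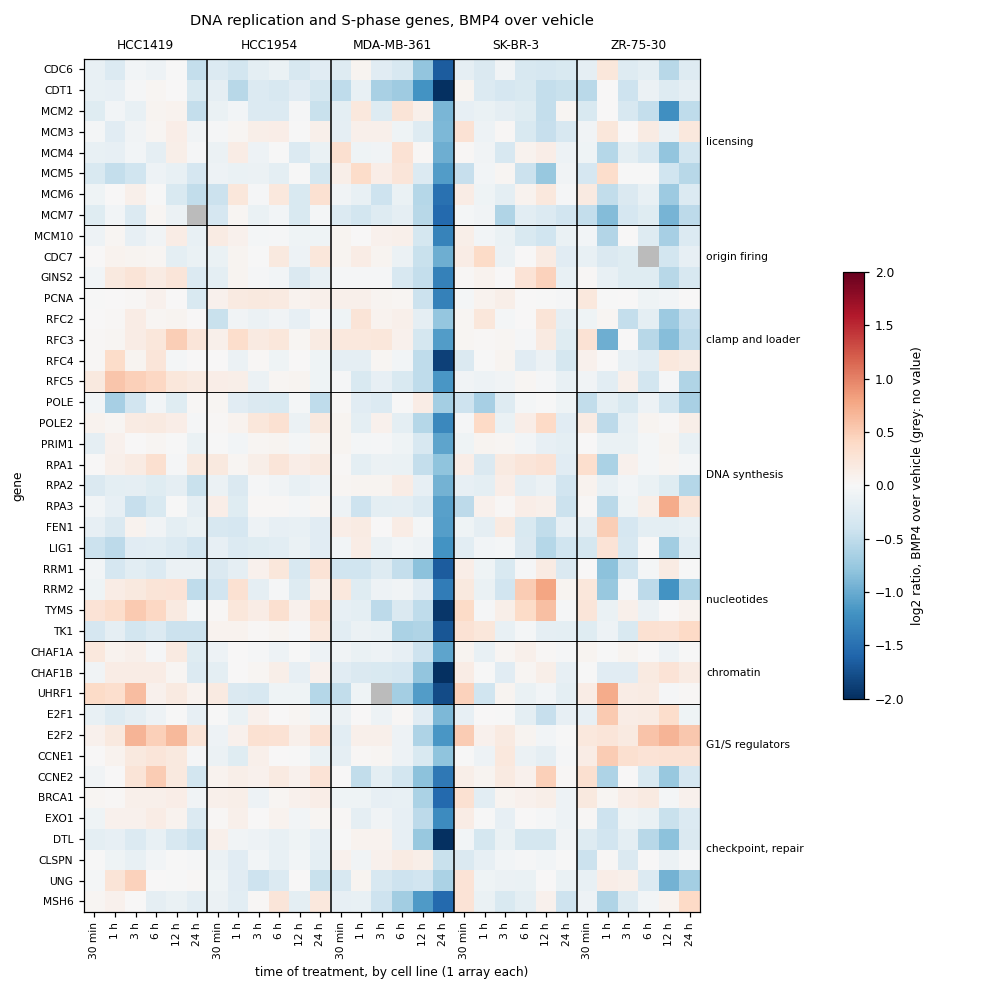
Log2 ratio of BMP4 over vehicle for each of the 41 genes (rows, by role) on each of the 30 arrays (columns, by line and time), from blue (lower with BMP4) to red (higher), with grey for no value and the scale ending at −2 and 2 (3 genes in MDA-MB-361 at 24 h lie past it). The 24 h column of MDA-MB-361 is blue in all 41 rows and its 12 h column in 37.

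Tested over the 5 lines, no member passed for the change from 30 min to 24 h. In limma with the line as a block, 40 of 41 estimates were below 0 (46.4% of all probes were), with a median of −0.31 against 0.0078 over all probes. An unadjusted p under 0.05 was reached by 18 members, all lower, compared with 2.61% of all probes. After adjustment over 41000 probes 0 members were called, where 0.0146% of all probes were called lower. The smallest adjusted p were those of RPA2 (0.227), UHRF1 (0.279) and RFC5 (0.295). The 3 largest p were those of CLSPN (0.01 ± 0.091, SE, limma adjusted p 0.993), E2F2 (−0.12 ± 0.18, 0.93) and RPA3 (−0.17 ± 0.17, 0.881). At 1, 3, 6 and 12 h minus 30 min the members' medians were −0.0029, −0.019, −0.00084 and −0.11, and 0 were called at each (1 at an unadjusted p under 0.05 at 1 h, and 0 at the others). With 1 scaling factor per array in place of loess, which moved the median change of the bright probes to between −0.30 (MDA-MB-361) and 1.15 (HCC1419), the members' median change over the lines was −0.048, 24 of 41 estimates were below 0 and limma called 0. Under that scaling the members' change was −1.78 in MDA-MB-361 and 1.57 in HCC1419, and it was −0.62 in SK-BR-3, 0.44 in ZR-75-30 and 0.18 in HCC1954, so that the direction flipped in HCC1419 and ZR-75-30. Nor was any member called for change over the 6 times (limma F test), where 0.0902% of all probes were. In that F test 4 members had an unadjusted p under 0.05, and the share of all probes that did was not taken.

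When MDA-MB-361 was left out, the median change from 30 min to 24 h was −0.075, 32 of 41 estimates were below 0, and limma called 0 members. In that set RPA2 (−0.25 ± 0.086, SE, unadjusted p 0.00998, limma adjusted p 0.822) and UHRF1 (−0.47 ± 0.16, unadjusted p 0.00936, limma adjusted p 0.802) were the members at an unadjusted p under 0.05.

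**Figure D3:**
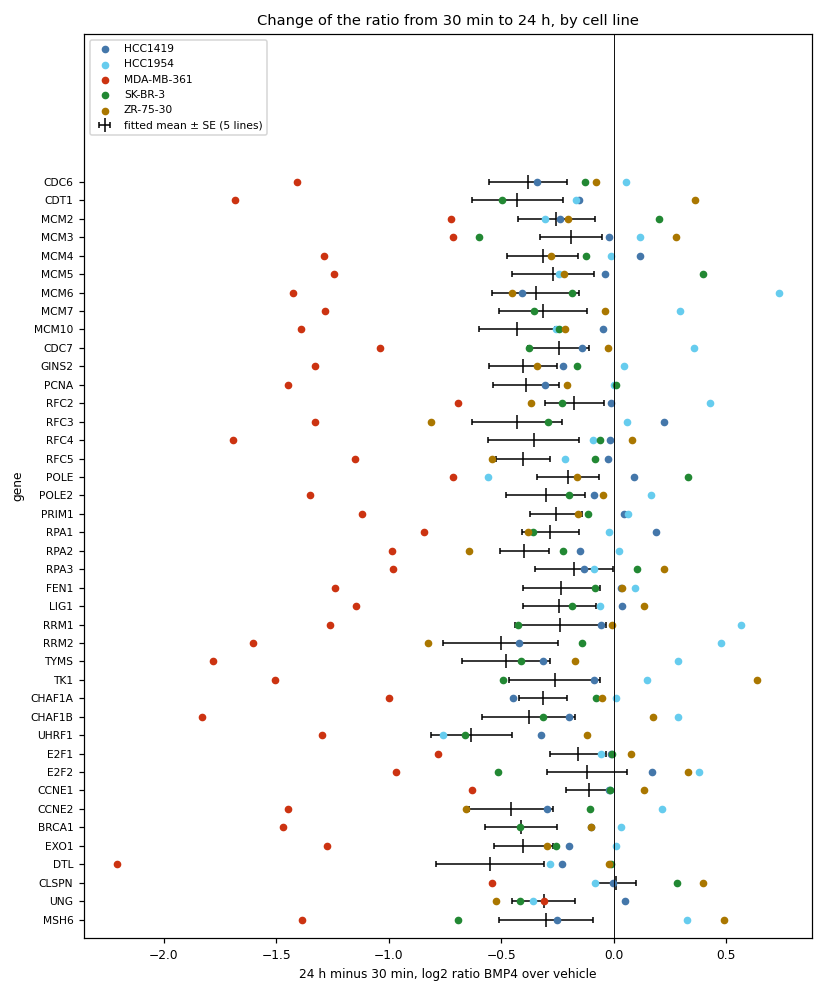
Change of the log2 ratio from 30 min to 24 h (horizontal axis) for each of the 41 genes (vertical axis, by role) in each cell line (coloured points), with the fitted mean over the 5 lines and its SE (black). MDA-MB-361 is the leftmost line for 40 genes, all but UNG, with those 40 between −2.21 (DTL) and −0.54 (CLSPN), while the points of the other lines run from −0.82 (RRM2) to 0.73 (MCM6).

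Against a ratio of 0 at 24 h, where a constant dye bias of a probe would add to the value, limma called 6 members lower and 0 higher, and 0.52% of all probes were called lower. They were RPA2 (−0.49 ± 0.31, SD, n = 5 lines, limma adjusted p 0.000556), CDC6 (−0.59 ± 0.61, 0.0167), LIG1 (−0.48 ± 0.41, 0.0199), POLE (−0.38 ± 0.33, 0.0357), MCM7 (−0.63 ± 0.65, 0.039, 4 lines with a value) and MCM5 (−0.49 ± 0.40, 0.0456). All 6 were below 0 at 30 min too, with means from −0.27 (MCM7) to −0.093 (RPA2). Without MDA-MB-361, RPA2 was the only member called (mean −0.37, limma adjusted p 0.00535). At 1 h POLE was called lower (−0.40 ± 0.25, SD, limma adjusted p 0.0407), where 0.361% of all probes were. At the other times 0 members were called. The count at 24 h was 16 with the line as a block, 10 with the software's processed signals, 11 with the series matrix values and 0 with 1 scaling factor per array, and it was 2 without HCC1419, 3 without HCC1954 and 3 without ZR-75-30. The share of all probes called was not taken under these settings, so whether a higher or lower count is particular to the members is not known.

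Within a line, neighbouring times were taken as a pair of measurements, and the mean of 12 and 24 h was compared with that of 30 min and 1 h, with 15 residual degrees of freedom shared by the lines. In MDA-MB-361 all 41 differences were below 0, with a median of −0.81. An unadjusted p under 0.05 was reached there by 35 members, and the share of all probes that reached it was not taken. Limma called 7 members lower in that line after adjustment, compared with 0.171% of all probes. They were DTL (−1.51 ± 0.29, SE, limma adjusted p 0.0254), CDT1 (−1.36 ± 0.23, 0.0137), MSH6 (−1.19 ± 0.20, 0.0129), CDC6 (−1.13 ± 0.21, 0.0229), BRCA1 (−1.01 ± 0.19, 0.0277), PCNA (−0.99 ± 0.18, 0.0187) and CDC7 (−0.81 ± 0.16, 0.037). The count of 7 became 2 without HCC1954, 3 without HCC1419, 11 with processed signals or array weights and 0 with 1 scaling factor per array. For these settings too the share of all probes called was not taken. In ZR-75-30 UNG was called lower (−0.81 ± 0.19, 0.0186), where 2.07% of all probes were. No member was called in HCC1419, HCC1954 or SK-BR-3, with 0, 0 and 1 at an unadjusted p under 0.05. The F test of whether this change differed between the lines called 0 members in limma, where 0.171% of all probes were called. At an unadjusted p under 0.05 there were 18 members, and the share of all probes at that level was not taken. MSH6 came closest to a call (limma adjusted p 0.0603), and it was called with array weights, with a slope on time or without SK-BR-3.

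Most of the difference in MDA-MB-361 lay between 12 and 24 h. The 24 h array minus the mean of the 30 min, 1, 3 and 6 h arrays had a median over the members of −1.20 in MDA-MB-361, while it was −0.15 for HCC1419, −0.00063 for HCC1954, −0.16 for SK-BR-3 and −0.054 for ZR-75-30. The members lowest by this difference in MDA-MB-361 were DTL (−2.20), RFC4 (−1.78) and CHAF1B (−1.77). A limma fit of this difference was chosen after the low 24 h values of MDA-MB-361 had been seen, and it takes its spread from the earlier arrays, with 1 array at 24 h in each line. Its counts therefore restate those values and are given as a description. They were 36 of 41 members lower in MDA-MB-361 (0.949% of all probes, and 17 members with 1 scaling factor per array), 1 in ZR-75-30 (RPA2, with 1.43% of all probes), 0 in each of the other lines, and 17 of 40 that differed between lines (0.768% of all probes). The members outside the 36 were POLE, RPA1, RPA3, CLSPN and UNG.

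The MDA-MB-361 arrays of 3, 6, 12 and 24 h shared a slide, and the median difference of 24 h from them was −1.16 (3 h, 40 of 40 members lower), −1.10 (6 h, 41 of 41) and −0.83 (12 h, 41 of 41). On the SK-BR-3 slide the 24 h array differed from the 3, 6 and 12 h arrays by medians of −0.12, −0.11 and −0.11, with 28 to 32 of 41 members lower. The HCC1954 differences were −0.019 from 3 h and −0.030 from 6 h, that of ZR-75-30 was −0.032 from 6 h, and that of HCC1419 was −0.18 from 12 h. For these comparisons within a slide the share of all probes that were lower was not taken.

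Both channels were also read separately, as log2 levels set to a common scale over the arrays, which leaves them open to dye and array effects. The difference in MDA-MB-361 lay mainly in the BMP4 channel. The members' median level in that channel changed from its 30 min value by 0.13, −0.079, −0.26, −0.79 and −1.19 at the 5 later times. The vehicle channel of the same arrays changed by 0.14, 0.027, −0.18, −0.43 and −0.016. Thus at 12 h both channels lay below their 30 min level, the BMP4 channel by more, and at 24 h the vehicle channel was back at it. At 24 h the BMP4 level was lower than at 30 min for 40 of 41 genes (UNG was higher) and by 1 or more on the log2 scale for 30, whereas the vehicle level was higher for 18 genes and lower for 23. Over all probes the median change at 24 h in that line was 0.0066 in the BMP4 channel and 0.015 in the vehicle channel. The share of all probes that were lower was not taken. DTL moved by −1.84 with BMP4 and 0.37 with vehicle, and TYMS by −1.26 and 0.52. For E2F2 both levels were lower, at −1.60 and −0.64. In SK-BR-3 the members' median at 24 h was −0.56 with BMP4 and −0.31 with vehicle relative to 30 min. Over the 5 lines limma called 4 members lower at 24 h in the BMP4 channel, where 0.749% of all probes were called lower. With quantile-normalized levels it called 1 (0.537% of all probes), and in the vehicle channel it called 0. An unadjusted p under 0.05 was reached by 23 members in the BMP4 channel and 5 in the vehicle channel. The share of all probes at that unadjusted level was not taken.

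**Figure D4:**
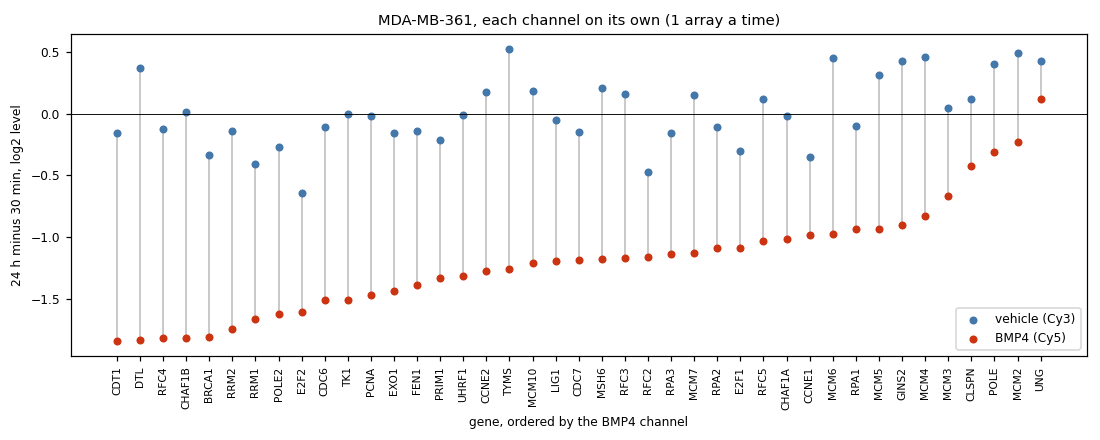
Change of the log2 level from 30 min to 24 h (vertical axis) in MDA-MB-361 for each of the 41 genes (horizontal axis, ordered by the BMP4 channel), with the vehicle channel in blue and the BMP4 channel in red, 1 array at each time. Vehicle levels scatter around 0 (median −0.016) and BMP4 levels lie below them for every gene (median −1.19).

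Over all 30 arrays the mean Pearson correlation of the log2 ratio over the 820 pairs of members was 0.52, and 798 pairs were above 0. Without the 24 h array of MDA-MB-361 it was 0.15 (538 pairs), and without all 6 arrays of that line 0.091 (492 pairs). These are descriptions of arrays that share lines, slides and scan days.

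The vehicle-treated cells of the lines differed in the level of these genes. CDC6 had the widest range of the mean log2 Cy3 level, from 10.17 ± 0.33 (SD, n = 6 arrays) in MDA-MB-361 to 14.34 ± 0.20 in SK-BR-3. CDT1 ranged from 11.29 ± 0.40 in HCC1419 to 14.38 ± 0.21 in MDA-MB-361, and CCNE1, the other S-phase cyclin, from 10.74 ± 0.28 in HCC1419 to 13.78 ± 0.47 in HCC1954, close to 13.54 ± 0.30 in SK-BR-3. HCC1419 was the lowest line for 17 of 41 members and the highest for 0, and its median over members lay 0.45 below the mean of the lines. HCC1954 lay 0.28 above it, and MDA-MB-361 at −0.0027, with 9 members lowest and 13 highest there. These are levels of 1 channel, and line and scan day cannot be told apart for HCC1419 and MDA-MB-361. The 7 scan days made only 8 combinations of line and day, so day was largely bound to line in the other lines as well.

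A list of 46 other DNA replication and S-phase genes, 9 of them found under an older symbol, was examined in the same way. Its median in MDA-MB-361 was −0.37 at 12 h and reached −0.98 by 24 h. Of the 46 genes, 23 were then at 2-fold lower, compared with 0.649% of all probes. CDC45 (−2.23), which joins MCM and GINS in the helicase, and GINS3 (−2.02) were among the lowest. Of the origin recognition complex, ORC1 was at −0.76, ORC3 at −0.51, ORC6 at −0.30, ORC5 at −0.23, ORC4 at −0.083 and ORC2 at 0.063. For 24 h minus 30 min over the lines, 42 of 46 genes had estimates below 0, with a median of −0.26, and limma called 0 (12 lower and 1 higher at an unadjusted p under 0.05). In MDA-MB-361 the late minus early test called CDC45, GINS3, POLD3, WDHD1 and HELLS lower, among others.

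Other probes of 8 members mostly had the same sign. A further E2F2 probe differed, at −0.091 in MDA-MB-361 at 24 h and 0.046 for 24 h minus 30 min over the lines, against −1.17 and −0.12 for the brighter probe. The further POLE probes were at 0.34 and 0.068 in MDA-MB-361 at 24 h, against −0.69, the first with 0.041 and the other with −0.0050 for 24 h minus 30 min, and the latter was well above background on 6 arrays in Cy3. The E2F2 and POLE values above are therefore those of 1 probe. The second probes of CDT1, RRM2, UHRF1, MCM10 and FEN1 were between −1.46 and −0.94 in MDA-MB-361 at 24 h, and that of RFC3 at −0.39.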

How the data were processed

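The deposited scanner output held spot intensity for 30 two-colour Agilent 44 K arrays, extracted with Feature Extraction 9.5.1.1 per the file headers, with probe positions on hg18. Vehicle cRNA was labelled with Cy3 and BMP4 cRNA with Cy5. The authors also deposited log2 ratios after a linear normalization, used as an alternative. Their scale and direction were settled against the processed signals.

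Mean signals were background-corrected with normexp (offset 50), normalized within arrays by loess with control spots at weight 0, and averaged over the spots of a probe (outlier flags left out) in limma 3.58.1 under R 4.3.3, giving 41000 probes. Each member was read from its brightest probe. Models were fitted to all probes with lmFit and eBayes, and p-values were adjusted over all probes by Benjamini-Hochberg, with calls at 0.05. Changes from 30 min had the cell line as a block, because replicate numbers stand for cell lines. Deviations from the time means correlated with a median r of 0.26 between times of a line (75 pairs, 44 over 0.1) and −0.083 between lines (300 pairs). The deviations of the 5 lines sum to 0 at each time, so part of the difference between these medians is built in. Channels were scaled with Aquantile. Scan days (7) and slides (12) came from the headers. The p-values measure the spread between 5 cell lines, or between times within a line, not between cultures. The number of arrays limits the precision. Scripts were tested on simulated data.

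The members, the list of other replication genes and the tests were chosen with earlier results of these data known. The genes given in full were PCNA, MCM2, CDC6, CDT1, RRM2, TYMS, E2F1 and CCNE2 and the 6 other members with the smallest p for 24 h minus 30 min, and the 3 with the largest p were named too. Alternatives were the processed signals, the series matrix values, 1 scaling factor per array, array weights, dim probes left out, the mean over probes of a gene, other blocks and each line left out. Some genes of the other list are not reported here by name.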

Additional observations from a re-analysis of the deposited data

Results flagged for a closer look

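At 24 h 18 members had MDA-MB-361 far below the other 4 lines, by the gap to the next line as a share of the whole range of the 5 lines. That share was 0.897 for FEN1, 0.877 for E2F1, 0.868 for CDT1, 0.859 for GINS2, 0.856 for BRCA1, 0.85 for MCM10, 0.841 for TYMS, 0.833 for DTL and 0.82 for CDC6. It was 0.819 for LIG1, 0.804 for CHAF1B, 0.775 for CHAF1A, 0.772 for PRIM1, 0.757 for EXO1, 0.752 for RFC4, 0.723 for POLE2, 0.722 for PCNA and 0.711 for RRM1. At 12 h the same line stood apart for UHRF1 (0.792) and PCNA (0.757). HCC1954 was the line farthest above the others for E2F1 at 30 min (0.718), with ratios that were all below 0. These were 21 of 111 sets of 5 lines examined, which are only part of all sets of a member and a time point. The members at a time point share the same 5 arrays and move together, so the sets are not independent. Their number was not tested, and no chance rate is set against it. The change of the 24 h array from the arrays of 30 min to 6 h differed between lines for 17 members in a limma F test that was chosen after MDA-MB-361 had been seen to stand apart at 24 h. With 1 array per line at 24 h, that count restates the low values of MDA-MB-361 and is a description.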

How the results depend on the processing

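No member was called for the change from 30 min, or over time, under any of the alternatives run, leaving out each line included. Leaving the line out of the model (no replicate block) gave 0 calls for 24 h minus 30 min. It gave 10 members at an unadjusted p under 0.05, where the block gave 18. The setting with the line as a replicate block alters only the test against 0, so no other call could change with it. With that setting the count called against 0 at 24 h rose from 6 to 16. That count was 10 with processed signals, 11 with the series matrix values and 0 with 1 factor per array, and 1 to 4 with 1 line left out, the lowest without MDA-MB-361. The count of members called lower late in MDA-MB-361, 7, was 11 with processed signals, 11 with array weights, 0 with 1 factor per array and 36 for 24 h against 30 min to 6 h, and 2 to 8 with another line left out. It has no value without MDA-MB-361. The count that differed between lines, 0, was 1 with array weights, 1 with a slope on log2 hours and 17 for 24 h against 30 min to 6 h, and 0 to 1 with 1 line left out. Apart from the fit of 24 h against 30 min to 6 h, the share of all probes called was not taken for these alternatives. The cause was not tested.

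Of 255 alternatives for 24 h minus 30 min of the 17 members given by name, 238 kept their direction, and adjusted p (limma) ran from 0.0994 to 0.9999. Leaving out the block or the dim probes returned the estimates of the main fit. The mean over probes did so too for the members with 1 probe. The direction could not change in those alternatives, so the 238 overstate how much was tried. With 1 factor per array MCM2 (0.076), E2F1 (0.16), CHAF1A (0.030), E2F2 (0.19) and RPA3 (0.19) were above 0. Without MDA-MB-361 so were E2F1, E2F2 and RPA3, with the slide as a block E2F2 (0.020), and for 12 and 24 h minus 30 min and 1 h RPA3 (0.093). Over the fits with 1 line left out E2F1 ran from −0.21 to 0.00023, E2F2 from −0.24 to 0.092, RPA3 from −0.27 to 0.027 and CLSPN from −0.086 to 0.15. CLSPN, near 0 (0.010), was below 0 with processed signals (−0.21), the series matrix values (−0.21), array weights (−0.010), scan day as a block (−0.10), slide as a block (−0.091), and without SK-BR-3 or ZR-75-30. The slide as a block and the fit of 24 h against 30 min to 6 h were chosen after the data were seen, and the counts of the latter are a description of the low 24 h array of MDA-MB-361. With 1 array per line and time and no dye swap, a probe's dye bias is part of every value against 0. CLSPN, the dimmest in detection, was well above background on 26 arrays in Cy5, and its values on all 30 arrays entered the fits.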
